A study of Sus scrofa with 11 samples.

Results

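The effect of a high fat diet was examined among pig hearts whose ischemic muscle had been injected with extracellular vesicles (EV). HFD+EV hearts, from pigs fed a high fat diet (HFD), were set against ND+EV hearts, from pigs fed a normal diet (ND). The 2 groups were found by the diet and injection in the sample titles and hold 6 of the 11 arrays of the series, 3 in each. All animals were intact male Yorkshire pigs, and diets ran for 12 weeks. All hearts carried an ameroid constrictor, which narrows an artery gradually, on the left circumflex coronary artery, so no group without ischemia enters any comparison. EV were injected into the myocardium of the ischemic territory, and left ventricle from the ischemic zone was taken 5 weeks later. HFD (2 arrays) and ND (3 arrays) hearts differed from these only in receiving vehicle, spelled vehicle-daline in the labels and read here as saline, in place of EV, and are used where the 2 diet differences are set side by side. The labels give neither ages nor the cells the vesicles came from, and the titles call the arrays of a group biological replicates. Source names number a swine for each array, but no label says outright that each array is a separate animal, so p-values measure the spread between these samples, which may be partly technical. The question of the series is how such a diet bears on vessel growth brought about by EV.

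Diets rich in fat load the myocardium with fatty acids and cholesterol, which nuclear receptors such as the PPAR and liver X receptors sense. Chronic ischemia adds pressure to grow new vessels through VEGF, angiopoietin, Notch and Slit signals. Interferons are secreted proteins that act through JAK kinases, STAT proteins and IRF9 to switch on antiviral effectors, antigen presentation and the sensors that recognise foreign nucleic acid, and they can be induced in injured tissue as well as by infection.

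Each value is the deposited log2 signal of 1 probe set, so a difference of 1 is a doubling, and each gene was read from the brightest of its probe sets. Of the 11 arrays, ND replicates 1 and 3 stood apart, with mean correlations to the others of 0.925 and 0.937 against 0.951 to 0.962 for the other 9. They do not enter the fold changes of HFD+EV against ND+EV. They do enter its shared estimate of spread, the leaving out of dim probe sets and the choice of the brightest probe set. The list scores and the comparisons with all other arrays given below use them as well. Among HFD+EV hearts, replicate 1 lay on the other side of the first principal component (0.14) from replicates 2 and 3 (-0.28 and -0.31), while ND+EV hearts had 0.10, -0.08 and 0.13. The mean correlation was 0.968 between HFD+EV arrays, 0.972 between ND+EV arrays and 0.965 between the groups. Heart muscle genes were bright in both groups: MYH7, the ventricular myosin heavy chain, had 12.31, 12.57 and 12.69 in HFD+EV hearts, against 12.24, 12.42 and 12.34 in ND+EV hearts. Of 17 cardiomyocyte markers, 12 were measured, with a median log2 fold change of 0.14, which was 0.085 without HFD+EV replicate 2, 0.088 without HFD+EV replicate 3 and 0.076 without ND+EV replicate 3.

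No probe set passed the limma test at an adjusted p of 0.05 in HFD+EV against ND+EV (0 of 20668, or 0%), and the smallest adjusted p was 0.155. Without adjustment, 1522 probe sets (7.36%) had a p under 0.05, of which 855 were higher and 667 lower in HFD+EV hearts. The 2 groups did not overlap for 2999 probe sets (14.5%). Over the 9738 genes measured, 482 were higher (4.95%) and 218 lower (2.24%) at an unadjusted p under 0.05. Separate groups were found for 894 higher (9.18%) and 557 lower (5.72%) genes. The median log2 fold change over all genes was 0.021, and 54.5% of genes were higher. A difference of at least 1.5-fold was seen in 127 higher and 36 lower genes. All genes described below therefore failed the adjusted test, and counts of members are to be read against these shares. The 855 higher probe sets numbered 1290 without HFD+EV replicate 1, 558 without HFD+EV replicate 2, 484 without HFD+EV replicate 3, 555 without ND+EV replicate 1 and 561 without ND+EV replicate 3, and the 667 lower ones numbered 384 without HFD+EV replicate 3. Without HFD+EV replicate 1, 2 probe sets passed, and without ND replicate 1, 2 passed.

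Interferon-induced effectors were the list with the highest median of the 42 pathway lists. Of 65 genes listed, 32 were on the array with a symbol and 30 were measured. In HFD+EV hearts 26 of the 30 were higher and 4 lower, with a median log2 fold change of 0.53 (range -0.33 to 2.03) beside 0.021 over all genes. An unadjusted p under 0.05 was reached by 19 of the 30, all higher, where the share of all genes was 4.95%. For 19 of the 30 the groups did not overlap, again all higher, where the share was 9.18%. In 13 of the 30, all 3 HFD+EV arrays lay above all 8 other arrays of the series, which was seen for 110 of the 9738 genes (1.13%). None of the 30 lay below all 8, where the share was 0.709%. None passed the adjusted test. The list was chosen with earlier results of these data known. Its counts beside the shares of all genes are therefore a description and not independent evidence. The median stayed between 0.48 and 0.61 under all settings tried and was 0.52 without HFD+EV replicate 1.

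**Figure D1:**
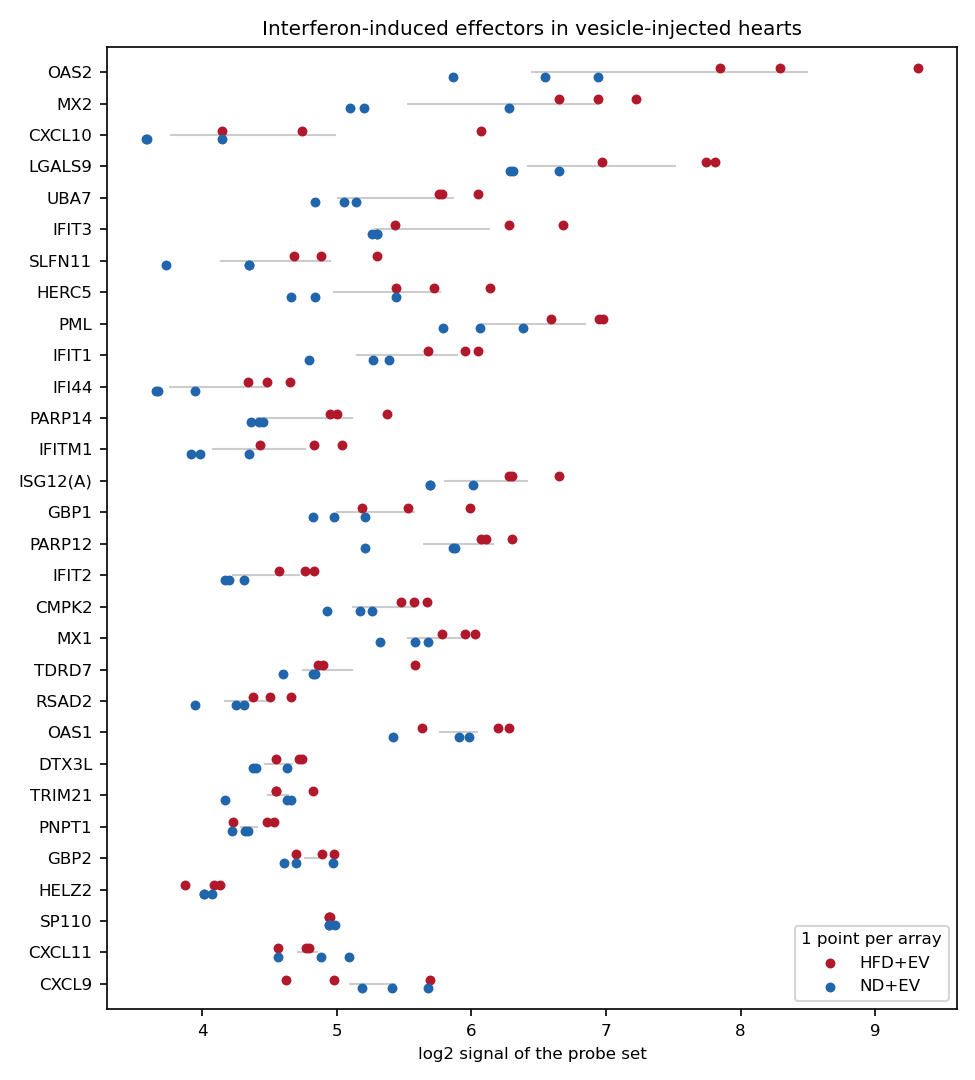
Log2 signal of the 30 measured interferon-induced effectors (horizontal axis) on the 3 HFD+EV arrays (red, upper row of each gene) and the 3 ND+EV arrays (blue, lower row), ordered by log2 fold change, with a grey line joining the group means. The groups do not overlap for 19 genes, all higher in HFD+EV hearts, and CXCL11 and CXCL9 at the foot of the plot were lower with overlapping groups.

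Beginning upstream, interferon genes themselves were dim. IFNB1, IFNG, IFNE and IFNK, named here because they were the only ligand genes of the list found on the array, had signals between 2.66 and 3.78 over all 11 arrays and were left out by the filter on low signal (mean under 3.63). Of the 18 genes listed as ligands, receptors and kinases, 6 were measured, among them USP18, which is none of these but a regulator. All 6 were higher, by 0.0028 to 1.10, with a median of 0.23, beside 0.39 in HFD against ND. An unadjusted p under 0.05 was reached by 2 of the 6, where the share of all genes was 4.95%. JAK1, a kinase that interferon receptors share, had 6.79, 6.89 and 7.23 in HFD+EV hearts, against 6.45, 6.58 and 6.60 in ND+EV hearts (log2 fold change 0.43 ± 0.15 SE, limma adjusted p = 0.596). The groups did not overlap, by a narrow margin. USP18, which removes the ubiquitin-like ISG15 from proteins and restrains the type I receptor, had 5.74, 5.01 and 5.37 in HFD+EV hearts, against 3.84, 4.81 and 4.19 in ND+EV hearts. All 3 HFD+EV arrays were above the ND+EV ones, of which replicate 2 came closest, and the log2 fold change was 1.10 ± 0.24 (SE, limma adjusted p = 0.425).

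Sensors of viral nucleic acid had 13 measured members, of which 10 were higher and 3 lower (median 0.17, and 0.28 with the dimmest 50% of probe sets left out). An unadjusted p under 0.05 was reached by 5 of the 13, all higher, where the share of all genes was 4.95%. Groups did not overlap for 3 higher members and 1 lower one, where the shares were 9.18% and 5.72%. IFIH1, the cytosolic double-stranded RNA sensor MDA5, had 5.49, 5.63 and 5.84 in HFD+EV hearts, against 4.67, 4.93 and 4.87 in ND+EV hearts. EIF2AK2, the RNA-activated kinase PKR that halts translation, had 6.72, 6.36 and 6.69 in HFD+EV hearts, against 5.33, 6.12 and 5.59 in ND+EV hearts. For both genes the groups were apart, with log2 fold changes of 0.83 ± 0.17 and 0.91 ± 0.20 (SE, limma adjusted p = 0.413 for each). DDX60, a helicase that aids RNA sensing, had 4.09, 4.33 and 4.04 in HFD+EV hearts, against 3.68, 3.71 and 3.44 in ND+EV hearts (log2 fold change 0.55 ± 0.13 SE). It was dim, with ND+EV values near the filter's cut of 3.63. That cut is on the mean over all 11 arrays, so the higher HFD+EV values helped DDX60 to pass it. DHX58 (0.56), a regulator of these sensors, and ZBP1 (0.36), a sensor of left-handed nucleic acid, were higher with overlapping groups. TLR7, an endosomal RNA receptor, had a log2 fold change of -0.20, and -0.11 without ND+EV replicate 2, and did not pass.

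Interferon transcription factors differed among themselves. STAT2 had 6.08, 6.55 and 6.59 in HFD+EV hearts, against 5.94, 5.78 and 5.68 in ND+EV hearts. IRF9, which binds STAT proteins to form the complex that reads interferon response elements, had 7.23, 7.30 and 7.47 in HFD+EV hearts, against 6.81, 6.81 and 6.72 in ND+EV hearts. Both were above all 8 other arrays in every HFD+EV heart, with log2 fold changes of 0.60 ± 0.15 and 0.55 ± 0.12 (SE, limma adjusted p = 0.518 and 0.413). IRF3, which acts directly below the sensors, was lower with groups apart (-0.37 ± 0.32 SE), and a second probe set gave -0.32 with overlapping groups. IRF7, the amplifier of the type I response, had a log2 fold change of 0.0022 ± 0.11 (SE). Of the 8 factors measured, 7 were higher and the median was 0.19.

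Among the effectors, the largest difference was that of OAS2, which makes the second messenger that activates RNase L. It had 9.32, 8.29 and 7.85 in HFD+EV hearts, against 5.86, 6.55 and 6.94 in ND+EV hearts. The groups were apart by almost one log2 unit at their nearest, and the log2 fold change was 2.03 ± 0.47 (SE, 4.10-fold, limma adjusted p = 0.445). MX2, a dynamin-like GTPase that blocks viruses at the nucleus, had 6.65, 7.22 and 6.94 in HFD+EV hearts, against 5.20, 6.28 and 5.10 in ND+EV hearts (1.41 ± 0.29 SE, 2.65-fold, limma adjusted p = 0.413). ND+EV replicate 2 stood above the other ND+EV hearts but below every HFD+EV heart. Its relative MX1 was read by 2 probe sets, both higher. The brighter gave 6.03, 5.78 and 5.95 in HFD+EV hearts, against 5.32, 5.58 and 5.68 in ND+EV hearts (0.39 ± 0.13 SE), and the other, 15218814, gave 5.72, 6.95 and 6.69 in HFD+EV hearts, against 4.73, 5.39 and 5.11 in ND+EV hearts (1.37 ± 0.28 SE, limma adjusted p = 0.413). That second probe set was 1 of the 2 that passed without HFD+EV replicate 1 (log2 fold change 1.74, limma adjusted p = 0.0468), and it also passed with array weights (1.64, limma adjusted p = 0.0448).

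IFIT1, which binds viral RNA caps, had 5.95, 6.05 and 5.68 in HFD+EV hearts, against 4.79, 5.27 and 5.39 in ND+EV hearts (0.74 ± 0.17 SE). Its relatives IFIT2 (0.49) and IFIT3 (0.84) were higher too, although HFD+EV replicate 1, at 5.43 for IFIT3, lay close to the ND+EV hearts (5.30, 5.30 and 5.26). IFI44 had 4.65, 4.48 and 4.34 in HFD+EV hearts, against 3.67, 3.66 and 3.95 in ND+EV hearts (0.73 ± 0.14 SE, limma adjusted p = 0.413). LGALS9, a galectin of immune regulation, had 6.97, 7.74 and 7.81 in HFD+EV hearts, against 6.31, 6.65 and 6.29 in ND+EV hearts (1.09 ± 0.24 SE, limma adjusted p = 0.425). The groups did not overlap for any of these. The enzymes that attach ISG15 to proteins were also higher: the activating enzyme UBA7 had 6.05, 5.78 and 5.76 in HFD+EV hearts, against 5.14, 5.05 and 4.84 in ND+EV hearts (0.85 ± 0.22 SE), and the ligase HERC5 had a log2 fold change of 0.79 ± 0.24 (SE). PML (0.76), the scaffold of nuclear bodies, PARP14 (0.70), an ADP-ribosyltransferase, IFITM1 (0.68), a membrane protein that blocks viral entry, and ISG12(A) (0.61), a mitochondrial protein, were each higher with groups apart.

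The effectors did not all differ alike. RSAD2, the radical enzyme viperin, had 4.38, 4.50 and 4.66 in HFD+EV hearts, against 4.25, 4.31 and 3.95 in ND+EV hearts, with a log2 fold change of 0.34. OAS1 had 6.20, 6.28 and 5.63 in HFD+EV hearts, against 5.91, 5.42 and 5.98 in ND+EV hearts, and the groups overlapped (0.27 ± 0.28 SE). Its log2 fold change was 0.14 without HFD+EV replicate 2, 0.47 without HFD+EV replicate 3 and 0.091 without ND+EV replicate 2. The 3 chemokines that draw T cells through the receptor CXCR3 differed among themselves. CXCL10 had 6.07, 4.74 and 4.15 in HFD+EV hearts, against 3.58, 4.15 and 3.59 in ND+EV hearts (1.21 ± 0.39 SE), with HFD+EV replicate 3 level with ND+EV replicate 2, and its log2 fold change was 0.67 without HFD+EV replicate 1. CXCL9 had 5.69, 4.62 and 4.98 in HFD+EV hearts, against 5.19, 5.41 and 5.68 in ND+EV hearts (-0.33 ± 0.26 SE), and CXCL11 had a log2 fold change of -0.14 ± 0.17 (SE). CXCL9 was at -0.63 without HFD+EV replicate 1, -0.091 without HFD+EV replicate 2 and -0.20 without ND+EV replicate 3, and CXCL11 at -0.065 without HFD+EV replicate 3, -0.28 without ND+EV replicate 2 and -0.016 without ND+EV replicate 3. SLFN11 was higher (0.81 ± 0.25 SE) on its brighter probe set and lower on a second one (-0.10).

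Antigen presentation by MHC class I had 18 measured members, of which 15 were higher and 3 lower (median 0.26). The median was nearly the same in HFD against ND (0.25). The median difference of the 2 diet effects was 0.0093, with 9 of the 18 larger with EV, so as a list these genes did not differ by injection as the effectors did. An unadjusted p under 0.05 was reached by 4 of the 18, all higher, where the share of all genes was 4.95%. TAP1, a subunit of the transporter that carries peptides into the endoplasmic reticulum, had 7.29, 6.74 and 6.81 in HFD+EV hearts, against 6.12, 5.86 and 6.05 in ND+EV hearts (0.93 ± 0.17 SE, limma adjusted p = 0.365). Every HFD+EV heart was above the 8 other arrays, which was also true of ERAP2, the peptidase that trims those peptides (0.64 ± 0.17 SE). CALR and PDIA3, chaperones of the peptide-loading complex, had log2 fold changes of 0.52 and 0.66. The heavy-chain partner B2M was at 9.64, 9.69 and 9.51 in HFD+EV hearts, against 9.68, 9.75 and 9.51 in ND+EV hearts, with a log2 fold change of -0.035 ± 0.25 (SE). SLA-5, a pig class I gene whose near-identical relatives may share its probes, was lower (-0.42 ± 0.21 SE) with overlapping groups, and was at -0.27 without HFD+EV replicate 1 and -0.25 without ND+EV replicate 3. All 12 measured genes of MHC class II presentation were higher, with a median of 0.27, beside 0.50 in HFD against ND. Only LGMN, an endosomal protease, had an unadjusted p under 0.05 (0.95 ± 0.39 SE), where the share of all genes was 4.95%.

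Markers of the immune cells that could carry such transcripts had smaller medians. The median log2 fold change was 0.013 over 13 macrophage markers, 0.027 over 14 T and NK cell markers and 0.012 over 7 markers of plasmacytoid dendritic cells. List scores, the mean over a list of each gene's signal minus its mean over the 11 arrays, ranged from -0.063 to 0.21 for macrophages in HFD+EV hearts, against -0.059 to 0.14 in ND+EV hearts, and from -0.053 to 0.11 for T and NK cells in HFD+EV hearts, against -0.074 to 0.046 in ND+EV hearts. Leaving out 1 EV array moved these medians in both directions. The macrophage median was 0.13, -0.041 and -0.015 without HFD+EV replicates 1, 2 and 3, and -0.082, 0.097 and 0.086 without ND+EV replicates 1, 2 and 3. The T and NK cell median was -0.02 without HFD+EV replicate 1 and 0.073 without replicate 2. The plasmacytoid dendritic cell median was 0.11 without HFD+EV replicate 2, 0.033 without ND+EV replicate 2, 0.0019 without ND+EV replicate 1 or 3, and 0.17 with the dimmest 50% of probe sets left out. The scores of HFD+EV and ND+EV hearts overlapped for macrophages and for T and NK cells, while the effector score was 0.51, 0.47 and 0.31 in HFD+EV hearts, against -0.24, -0.06 and -0.083 in ND+EV hearts. None of the 13 macrophage or 14 T and NK cell markers had an unadjusted p under 0.05, while 1 of the 7 plasmacytoid dendritic cell markers did and was higher. The shares of all genes were 4.95% higher and 2.24% lower, so lists this short would hold few such genes in any case. The plasmacytoid dendritic cell markers share IRF7, TLR7 and TLR9 with the interferon lists. Whether any of these cells account for the effector values was not tested. Neutrophil, dendritic cell and platelet lists had fewer than 5 measured members and are not described. In bulk tissue, fewer cells of a type and less RNA per cell cannot be told apart.

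**Figure D2:**
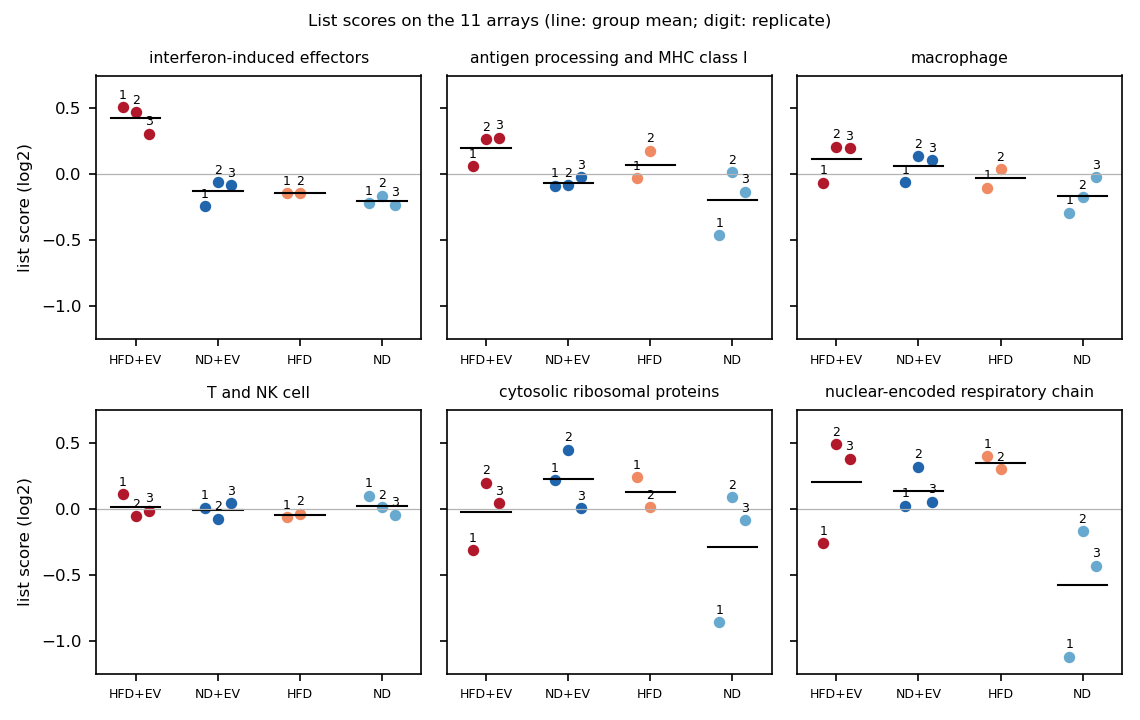
List scores (vertical axis, log2 units, mean over the list of each gene's signal minus its mean over the 11 arrays) in HFD+EV, ND+EV, HFD and ND hearts for 6 lists, with 1 point per array, its replicate number above it and a line at the group mean. The effector score is 0.51, 0.47 and 0.31 in HFD+EV hearts and below 0 on all 8 other arrays, while ribosomal and respiratory chain scores set HFD+EV replicate 1 apart from replicates 2 and 3.

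The same diet contrast in vehicle-injected hearts shares no array with the one above and gives the difference in diet effect. Effectors had a median log2 fold change of 0.53 in HFD+EV against ND+EV, beside -0.033 in HFD against ND. Their score was -0.14 and -0.14 in HFD hearts, against -0.22, -0.16 and -0.23 in ND hearts. In the test of the difference between the 2 diet effects no probe set passed (0 of 20668, or 0%), and 1740 (8.42%) had an unadjusted p under 0.05. Of the 30 effectors, 11 had an unadjusted p under 0.05 with the larger effect among EV hearts, where the share of all genes was 2.68%, and none had one in the other direction, where the share was 4.98%. The median difference over the 30 was 0.48. Without HFD+EV replicate 1, the 1740 probe sets numbered 1122, and without HFD replicate 1, 1 probe set passed.

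Single genes differed in the size of this difference. MX2 had 5.16 and 5.21 in HFD hearts, against 5.13, 5.37 and 5.78 in ND hearts, and its difference of diet effects was 1.65 (limma adjusted p = 0.572). The effectors UBA7 (1.13), IFIT1 (0.82) and PML (0.77), TAP1 (1.05) of antigen processing and the dim sensor DDX60 (0.66) had differences with the same adjusted p. OAS2 had 8.12 and 7.81 in HFD hearts, against 5.14, 6.34 and 6.90 in ND hearts, a log2 fold change of 1.84 in vehicle-injected hearts beside 2.03 in EV-injected ones, with a difference of 0.19. The effector SLFN11 (0.81 with EV and 0.59 with vehicle), ERAP2 of antigen processing (0.64 with either injection) and PHF11, in none of the lists (0.73 with EV and 0.52 with vehicle), had positive values with both.

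**Figure D3:**
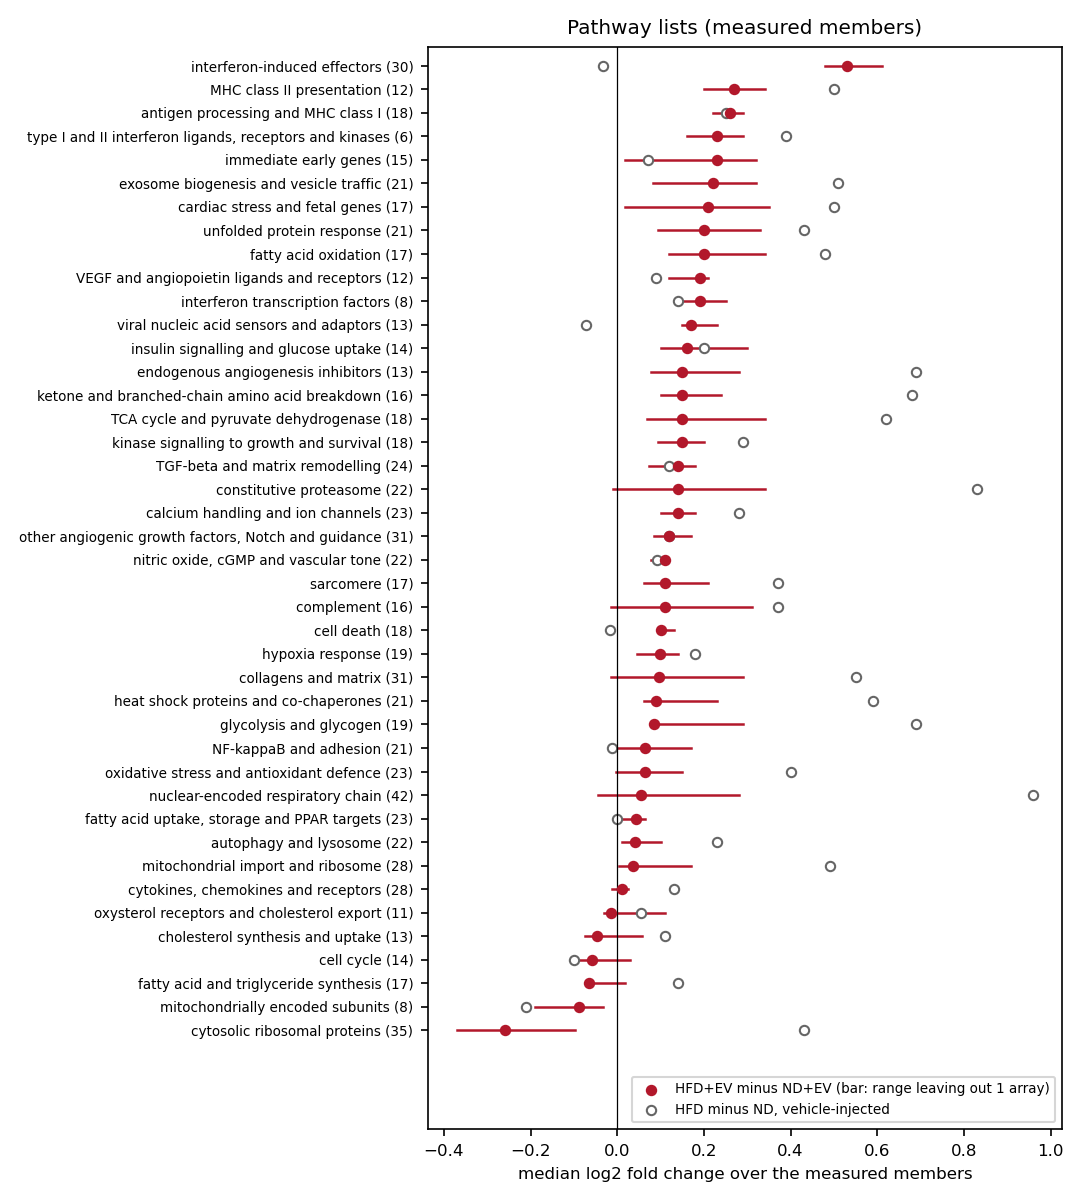
Median log2 fold change (horizontal axis) over the measured members of each of the 42 pathway lists, for HFD+EV minus ND+EV (filled red, with a bar from the lowest to the highest median on leaving out 1 of the 6 arrays in turn) and for HFD minus ND in vehicle-injected hearts (open). Interferon-induced effectors have the highest median with EV, 0.53, and -0.033 with vehicle, and cytosolic ribosomal proteins the lowest, -0.26 with EV and 0.43 with vehicle. With vehicle the ribosomal list scores overlapped, and ND replicate 1 had the lowest (-0.86).

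The rule for single genes took those differing at least 1.5-fold with groups apart, by smallest p, up to 15 each way. It named 15 higher genes (limma adjusted p from 0.197 to 0.441), of which 7 belonged to the interferon lists, and 13 lower genes (0.413 to 0.746), of which none did. Of the others, GVIN1, a very large GTPase induced by interferon in mice, had 6.05, 6.21 and 6.37 in HFD+EV hearts, against 4.90, 4.88 and 5.28 in ND+EV hearts. It had the smallest adjusted p of any named gene (1.19 ± 0.19 SE, 2.28-fold, limma adjusted p = 0.197) and passed when arrays were weighted (1.23, limma adjusted p = 0.0325). PHF11, a zinc finger protein of lymphocyte gene control, had 7.90, 7.83 and 7.73 in HFD+EV hearts, against 7.01, 7.27 and 6.99 in ND+EV hearts (0.73 ± 0.14 SE). In both genes the HFD+EV hearts lay above every other array.

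PDE2A, which breaks down cAMP when cGMP is bound and so links the 2 messengers in heart muscle, had 6.67, 6.89 and 6.87 in HFD+EV hearts, against 6.26, 6.05 and 6.07 in ND+EV hearts (0.69 ± 0.14 SE, limma adjusted p = 0.413). With vehicle the groups overlapped, at 6.73 and 6.46 in HFD hearts, against 6.32, 6.64 and 6.75 in ND hearts. SNX10, a sorting nexin of endosomes, had 5.82, 5.87 and 5.63 in HFD+EV hearts, against 4.71, 5.33 and 4.94 in ND+EV hearts (0.78 ± 0.17 SE). KIAA1671 and CDHR4, a cadherin-related gene, had log2 fold changes of 0.63 and 0.66.

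Lower genes were led by size by MYL7, the regulatory myosin light chain of atrial muscle. It had 7.40, 7.68 and 6.88 in HFD+EV hearts, against 9.79, 8.98 and 9.63 in ND+EV hearts, with more than one log2 unit between the groups (-2.15 ± 0.55 SE, limma adjusted p = 0.515). In vehicle-injected hearts it had 9.18 and 8.44 in HFD hearts, against 6.35, 8.13 and 9.0 in ND hearts, a log2 fold change of 0.98, and its difference of diet effects was -3.13 ± 0.82 (SE, limma adjusted p = 0.572). Other atrial markers were mixed. Of the 10 measured, MYL7 included, 6 were higher and 4 lower with a median of 0.045, which was 0.09 without HFD+EV replicate 2 and 0.24 with the dimmest 50% of probe sets left out, and the potassium channel KCNA5 had -0.56 while the transcription factor TBX5 had 0.39. NPPA, the atrial natriuretic peptide that stressed ventricles also make, had 6.82, 6.29 and 7.40 in HFD+EV hearts, against 4.61, 6.74 and 6.07 in ND+EV hearts. Its groups overlapped (1.03 ± 0.58 SE), and the log2 fold change was 0.43 without ND+EV replicate 1. The labels do not say where in the ischemic zone each piece of tissue was cut.

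Of the remaining lower genes, RBM24, a splicing factor of muscle, had 8.31, 8.43 and 8.58 in HFD+EV hearts, against 9.32, 8.94 and 9.08 in ND+EV hearts (-0.68 ± 0.21 SE). L3MBTL1, which compacts chromatin, had 6.72, 6.63 and 6.20 in HFD+EV hearts, against 7.17, 7.23 and 7.42 in ND+EV hearts (-0.76 ± 0.18 SE). NDUFA3, a subunit of respiratory complex I, had 7.80, 7.99 and 7.52 in HFD+EV hearts, against 8.57, 8.27 and 8.60 in ND+EV hearts (-0.71 ± 0.45 SE). The microRNA genes MIR885 (-0.91) and MIR296 (-0.77), the lens aquaporin MIP (-0.62), NAP1L5 (-0.73), the myogenic inhibitor MDFI (-0.64), the mitotic kinase CDK1 (-0.74), the proline transporter SLC6A7 (-0.64) and the trafficking subunit TRAPPC5 (-0.65) completed the list. MIR296 was at -0.43 without HFD+EV replicate 2, and CDK1 at -0.41 without ND+EV replicate 3. Several of these signals were low, as for MIR885 at 3.19, 3.41 and 3.64 in HFD+EV hearts, against 4.61, 3.91 and 4.45 in ND+EV hearts.

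Genes of cholesterol sensing and export differed in opposite directions. NR1H3, the liver X receptor alpha that senses oxysterols, had 7.21, 7.78 and 7.56 in HFD+EV hearts, against 8.22, 8.70 and 7.81 in ND+EV hearts (-0.73 ± 0.24 SE, limma adjusted p = 0.596). The highest HFD+EV heart lay just under the lowest ND+EV heart. Yet 2 of its known targets were higher. MYLIP, the ligase that marks the LDL receptor for degradation, had 7.21, 7.86 and 7.72 in HFD+EV hearts, against 6.79, 6.80 and 6.69 in ND+EV hearts (0.84 ± 0.19 SE, limma adjusted p = 0.425). ABCA1, which exports cholesterol to lipoproteins, had 6.23, 6.74 and 6.65 in HFD+EV hearts, against 5.93, 6.09 and 5.83 in ND+EV hearts (0.59 ± 0.14 SE, limma adjusted p = 0.509). Over the 11 genes of the list, 5 were higher and 6 lower, and the median of -0.014 turned positive with quantile (0.014) or loess (0.011) scaling, with array weights (0.011), with the dimmest 50% of probe sets left out (0.15), and without HFD+EV replicate 1 (0.043), HFD+EV replicate 3 (0.11) or ND+EV replicate 2 (0.11).

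MYLIP was also higher with vehicle, at 7.51 and 7.48 in HFD hearts, against 6.80, 7.15 and 6.58 in ND hearts. ABCA1 was not, at 5.84 and 5.81 in HFD hearts, against 6.08, 6.08 and 6.20 in ND hearts. Cholesterol synthesis and uptake had 6 genes higher and 7 lower, with a median of -0.047 that turned positive without HFD+EV replicate 1 (0.057), HFD+EV replicate 3 (0.014) or ND+EV replicate 2 (0.022), with array weights (0.018) and with the dimmest 50% of probe sets left out (0.022). Its lower genes included ACAT2, an early enzyme, at 3.83, 3.83 and 3.75 in HFD+EV hearts, against 4.18, 3.94 and 4.12 in ND+EV hearts (-0.28), and SQLE, the squalene epoxidase (-0.24), both at low signal.

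**Figure D4:**
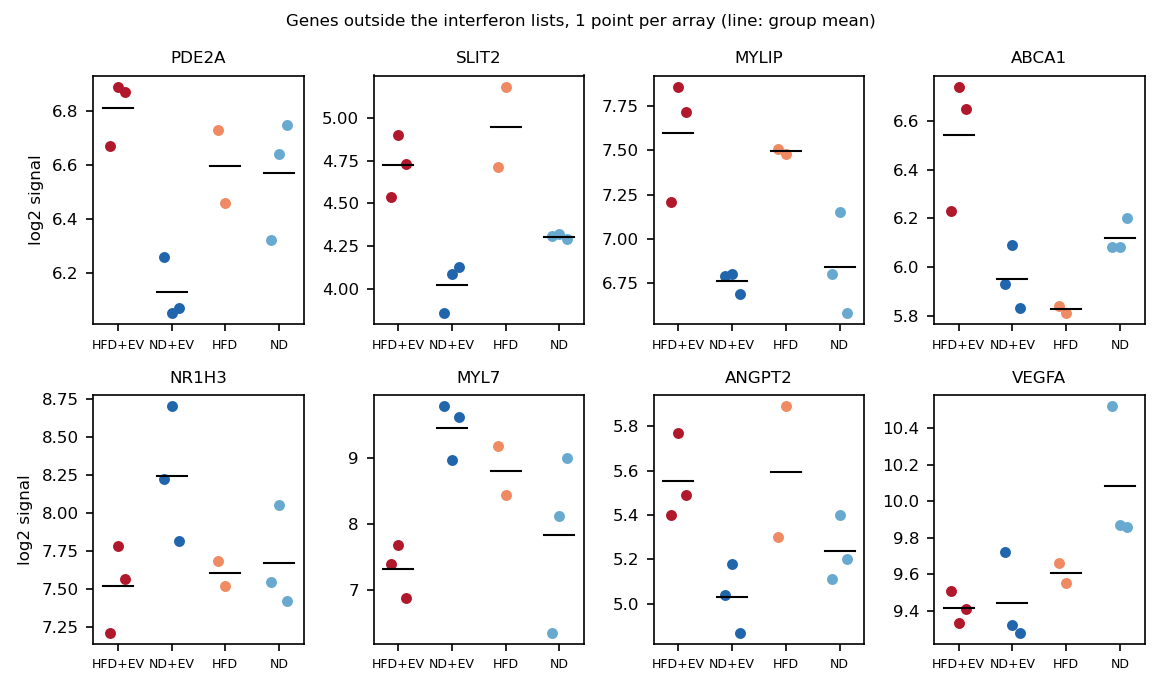
Log2 signal (vertical axis, a separate range for each gene) of PDE2A, SLIT2, MYLIP, ABCA1, NR1H3, MYL7, ANGPT2 and VEGFA in HFD+EV, ND+EV, HFD and ND hearts, with 1 point per array and a line at the group mean. MYL7 is at 6.88 to 7.68 in HFD+EV hearts and 8.98 to 9.79 in ND+EV hearts, NR1H3 is lower in HFD+EV hearts, and VEGFA overlaps between them.

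Fatty acid oxidation had 17 measured genes, 13 higher and 4 lower, with a median of 0.20, beside 0.48 in HFD against ND. CPT1A, an enzyme that commits fatty acids to entry into mitochondria, had 6.27, 6.08 and 6.36 in HFD+EV hearts, against 5.99, 5.99 and 5.66 in ND+EV hearts (0.36 ± 0.13 SE). ACADL, the long-chain acyl-CoA dehydrogenase, had 7.07, 7.30 and 7.19 in HFD+EV hearts, against 6.61, 7.01 and 6.67 in ND+EV hearts (0.43 ± 0.17 SE). Groups were apart for both genes, although a second, dimmer probe set of CPT1A gave 0.13 with overlapping groups. In the list, groups were apart for 3 higher and 2 lower genes, where the shares of all genes were 9.18% and 5.72%. An unadjusted p under 0.05 was reached by 2 of the 17, both higher, where the share of all genes was 4.95%. The median was 0.34 without HFD+EV replicate 1 and 0.12 without replicate 3.

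Of 18 genes of the TCA cycle and pyruvate dehydrogenase, 16 were higher (median 0.15, and 0.62 in HFD against ND). PDHX, the binding protein of the pyruvate dehydrogenase complex, had 7.39, 7.69 and 7.73 in HFD+EV hearts, against 7.08, 7.11 and 7.17 in ND+EV hearts (0.48 ± 0.12 SE, limma adjusted p = 0.509), and its value with vehicle was 0.56. DLD, a subunit that this complex shares with others, had 5.75, 5.91 and 5.79 in HFD+EV hearts, against 5.03, 5.46 and 4.93 in ND+EV hearts (0.67 ± 0.23 SE), and 1.10 with vehicle. The list median was 0.34 without HFD+EV replicate 1, 0.069 without replicate 2, 0.086 without replicate 3, 0.063 and 0.061 with quantile and loess scaling, and 0.27 with array weights.

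Respiratory chain and proteasome lists had smaller medians with EV than with vehicle. The 42 measured respiratory chain genes of the nucleus had a median of 0.056, beside 0.96 in HFD against ND, with 28 higher and 14 lower. That median was -0.0057 and -0.034 with quantile and loess scaling, 0.21 with array weights, and from -0.045 (without HFD+EV replicate 2) to 0.28 (without HFD+EV replicate 1) on leaving out 1 array, so its direction was not stable. None had an unadjusted p under 0.05, and 17 of the 42 had one for a smaller diet effect with EV, where the share of all genes was 4.98%. Proteasome genes had a median of 0.14 with EV, beside 0.83 with vehicle, and 8 of 22 had an unadjusted p under 0.05 for a smaller diet effect with EV. On leaving out 1 array the proteasome median was between -0.0088 (without HFD+EV replicate 2) and 0.34 (without HFD+EV replicate 1). Scores of these lists were spread widely within HFD+EV hearts: the respiratory chain score was -0.26 in replicate 1 and 0.49 and 0.38 in replicates 2 and 3, against 0.026, 0.32 and 0.055 in ND+EV hearts. In HFD against ND the 2 ND arrays that stood apart had the lowest scores (-1.12 and -0.43). Without both of them, 1325 probe sets had an unadjusted p under 0.05 in the difference of the diet effects, where all arrays gave 1740.

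Cytosolic ribosomal proteins were the list with the lowest median. Of 35 measured, 32 were lower and 3 higher, with a median of -0.26, where HFD against ND gave 0.43. None had an unadjusted p under 0.05, and for 6 of 35 the groups did not overlap, all lower, where the share of all genes was 5.72%. RPL34, a protein of the large subunit, had 9.92, 9.94 and 9.73 in HFD+EV hearts, against 10.22, 10.59 and 9.99 in ND+EV hearts (-0.41 ± 0.20 SE, limma adjusted p = 0.702, and -0.24 without ND+EV replicate 2). RPS20, a protein of the small subunit, had a log2 fold change of -0.31. The median was -0.098 without HFD+EV replicate 1, whose list score of -0.31 was the lowest of the 6 hearts. In vehicle-injected hearts the list scores overlapped, at 0.24 and 0.015 in HFD hearts, against -0.86, 0.088 and -0.086 in ND hearts. There ND replicate 1, an array that stood apart, lay far below the others.

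Of 12 measured VEGF and angiopoietin ligands and receptors 11 were higher, with a median of 0.19 (0.12 without HFD+EV replicate 2, and with quantile or loess scaling), beside 0.09 in HFD against ND, and 2 had an unadjusted p under 0.05, both higher, where 4.95% of all genes measured were. The list score was 0.12, 0.13 and -0.0012 in HFD+EV hearts, against -0.033, -0.12 and -0.17 in ND+EV hearts. The groups did not overlap, by a narrow margin. Scores of other lists were apart too, such as hypoxia (0.015 to 0.11 in HFD+EV hearts, against -0.074 to -0.032 in ND+EV hearts). With vehicle the VEGF and angiopoietin score was 0.0039 and 0.05 in HFD hearts, against 0.028, 0.073 and -0.072 in ND hearts. ANGPT2, the ligand that loosens endothelial contacts, had 5.40, 5.77 and 5.49 in HFD+EV hearts, against 5.04, 5.18 and 4.87 in ND+EV hearts (0.52 ± 0.17 SE, limma adjusted p = 0.596). VEGFC, a ligand of lymphatic growth, had 6.61, 6.40 and 6.29 in HFD+EV hearts, against 6.21, 5.96 and 6.18 in ND+EV hearts (0.31 ± 0.13 SE, limma adjusted p = 0.657). VEGFA, the main hypoxia-driven ligand, had 9.51, 9.33 and 9.41 in HFD+EV hearts, against 9.72, 9.32 and 9.28 in ND+EV hearts (-0.023 ± 0.19 SE), and its second probe set gave 0.15. Its receptors FLT1 (0.18) and KDR (0.22) had overlapping groups, and a second, dim probe set of KDR gave -0.057. Without HFD+EV replicate 2 FLT1 was at 0.021 and KDR at 0.011, without HFD+EV replicate 1 they were at 0.33 and 0.35, and FLT1 was at 0.096 without ND+EV replicate 3.

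Guidance and Notch signals included the named gene SLIT2, a secreted ligand of Roundabout receptors. It had 4.54, 4.90 and 4.73 in HFD+EV hearts, against 3.86, 4.09 and 4.13 in ND+EV hearts (0.70 ± 0.15 SE, limma adjusted p = 0.413), and with vehicle 4.71 and 5.18 in HFD hearts, against 4.31, 4.32 and 4.29 in ND hearts. Its groups were apart with both injections. ROBO4, the Roundabout family member of endothelium, had 6.09, 6.25 and 6.46 in HFD+EV hearts, against 5.73, 5.73 and 5.91 in ND+EV hearts (0.47 ± 0.17 SE), and NOTCH4, an endothelial Notch receptor, had a log2 fold change of 0.49. Both had negative values with vehicle (-0.32 and -0.34). Of the list's 31 measured genes, 21 were higher and 10 lower (median 0.12).

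Endothelial markers were higher in 8 of 10 (median 0.21), and VWF, the clotting factor of endothelium, had a log2 fold change of 0.44. Smooth muscle and pericyte markers were higher in 8 of 9 (median 0.30), and fibroblast markers in 9 of 11 (median 0.18). Without HFD+EV replicate 2 the endothelial median was 0.076 and the smooth muscle one 0.18, and the fibroblast median was 0.074 without HFD+EV replicate 3 and 0.33 without replicate 1. Quantile scaling gave 0.11, 0.19 and 0.096 for the 3 lists in that order. The part of these cell types in the vessel genes was not tested.

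In the hypoxia list, 3 of 19 genes had an unadjusted p under 0.05, all higher, where the share of all genes was 4.95%. The list median was 0.098 (0.045 without HFD+EV replicate 3 and 0.059 without replicate 1). STC1, a secreted glycoprotein induced by low oxygen, had 8.15, 8.53 and 7.67 in HFD+EV hearts, against 7.41, 7.46 and 7.40 in ND+EV hearts (0.69 ± 0.19 SE, limma adjusted p = 0.570). All 3 HFD+EV hearts were above all 8 other arrays. HIF1A, the oxygen-sensitive factor itself, had a log2 fold change of 0.53 (0.32 without HFD+EV replicate 2), and P4HA1, a collagen prolyl hydroxylase, 0.30.

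Collagens and matrix genes were higher in 26 of 31 with a median of 0.096, which was -0.015 without HFD+EV replicate 3 and 0.29 without replicate 1. FBN1, the microfibril protein fibrillin, had 7.24, 7.98 and 7.96 in HFD+EV hearts, against 7.0, 7.19 and 7.07 in ND+EV hearts (0.64 ± 0.23 SE). Of the inflammatory genes, CASP1, the protease of the inflammasome and a member of the NF-kappaB and adhesion list, had 6.77, 6.58 and 6.62 in HFD+EV hearts, against 5.50, 6.17 and 6.01 in ND+EV hearts (0.76 ± 0.20 SE, limma adjusted p = 0.527), and all HFD+EV hearts were above all 8 other arrays. The NF-kappaB and adhesion list as a whole had 16 of 21 higher and 5 lower, with a median of 0.065 that was -0.0022 without HFD+EV replicate 1. Its groups were apart for 3 higher and 3 lower members, where the shares of all genes were 9.18% and 5.72%. Another member lay below all 8 other arrays in every HFD+EV heart. CSF1, the growth factor of macrophages, had a log2 fold change of 0.61. The 28 cytokines, chemokines and receptors as a list had 15 higher and 13 lower (median 0.012), a direction that turned without HFD+EV replicate 1 (-0.012).

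Unfolded protein response genes were higher in 18 of 21, with a median of 0.20 (0.33 without HFD+EV replicate 1 and 0.094 without replicate 3). An unadjusted p under 0.05 was reached by 3 of the 21, all higher, where the share of all genes was 4.95%. They were CALR and PDIA3, given above, and DNAJB9 (0.81), a chaperone partner of the endoplasmic reticulum. Genes of exosome formation and vesicle traffic were higher in 18 of 21 (median 0.22, 0.13 without HFD+EV replicate 2, 0.083 without replicate 3, and 0.12 with quantile or loess scaling), beside 0.51 in HFD against ND. FLOT2, a membrane raft protein, had 5.68, 5.99 and 5.88 in HFD+EV hearts, against 5.37, 5.61 and 5.52 in ND+EV hearts (0.35 ± 0.14 SE). RAB27B, a GTPase of exosome release, had 6.49, 5.72 and 5.72 in HFD+EV hearts, against 5.28, 5.61 and 5.53 in ND+EV hearts (0.50 ± 0.22 SE), with replicate 1 far above the others and a log2 fold change of 0.25 without it. The antioxidant TXN2, mitochondrial thioredoxin, was lower (-0.52 ± 0.20 SE, and -0.28 without ND+EV replicate 3), and ATF3, a stress-induced factor, was higher with overlapping groups (1.09 ± 0.43 SE, and 0.52 without HFD+EV replicate 3).

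The smallest p-values belonged to probe sets with no gene name. Of the 50 with the smallest p, 29 had no symbol and 35 were higher in HFD+EV hearts. Probe set 15349865 had 5.69, 5.81 and 5.84 in HFD+EV hearts, against 4.55, 4.85 and 4.51 in ND+EV hearts (1.14 ± 0.14 SE). Probe set 15217630 had 6.70, 6.68 and 6.76 in HFD+EV hearts, against 5.87, 5.58 and 5.68 in ND+EV hearts (1.01 ± 0.13 SE). Their limma adjusted p was 0.155 for each, and the groups were far apart. Those lower in HFD+EV hearts were led by 15180075 (-0.98) and 15182079 (-1.28).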

How the data were processed

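Total RNA (50 ng) of ischemic left ventricle was measured on an Affymetrix whole-transcript array, 1 array per sample, per the labels' protocols. The deposited log2 values were used as given: 27558 probe sets on 11 arrays, from 2.14 to 14.02, with array medians of 4.36 to 4.48. Transcriptome Analysis Console is named in the submitters' processing notes, with no normalization method or build stated. Gene symbols came from the platform annotation: 13157 probe sets had 1 symbol, 523 several and 13878 none, and 12841 were matched by gene ID to current names. The dimmest 25% of probe sets by mean over the arrays were left out. The rest were fitted with limma 3.58.1 in R 4.3.3, with 1 mean for each of the 4 groups (7 residual and 3.62 prior degrees of freedom), two-sided tests and Benjamini-Hochberg adjustment over 20668 probe sets. Each of 9738 genes was read from its brightest probe set. Tests were tried on simulated data. Named genes were those with a fold of at least 1.5 and groups apart (15 places each way), the 3 smallest p of each list, and members of the interferon, MHC class I and VEGF lists. Members, lists and the naming rule were chosen with earlier results of these data known, so no list is independent evidence. Precision is limited by how few arrays there are. Of 61 gene lists, 7 had under 5 measured members.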

Additional observations from a re-analysis of the deposited data

Results flagged for a closer look

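In 6 named genes every HFD+EV heart lay on one side of all ND+EV hearts while every HFD heart lay on the opposite side of all ND hearts. The share of all 9738 genes with such a reversal was not counted, and some named genes had been chosen for groups apart with EV. The 6 therefore cannot be weighed against what genes at large would give. The difference of the 2 diet effects, EV minus vehicle, was 0.92 for KIAA1671, 1.11 for CDHR4, 0.88 for ABCA1 and 0.58 for the brighter probe set of MX1. It was -1.20 for NAP1L5 and -1.21 for TXN2. The limma test of that difference gave an adjusted p of 0.572 for each, so none passed. The second MX1 probe set, 15218814, did not reverse. Its log2 fold change was 1.37 with EV and 0.35 with vehicle, with groups apart in the same direction for both. With vehicle it had 5.31 and 5.32 in HFD hearts, against 4.83, 5.04 and 5.02 in ND hearts. Groups held 2 or 3 arrays, so Dixon's criterion for an outlying sample was not applied.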

How the results depend on the processing

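HFD+EV against ND+EV gave 0 passing probe sets, 10 with array weights, and 0 to 2 on leaving out 1 array. Without ND replicates 1 and 3 together, a setting chosen after seeing the data, 2 passed. Unadjusted higher counts (855) were 1937 with array weights and 484 to 1290 on leaving out 1 array. Lower counts (667) were 1516 with array weights, 387 with the dimmest 50% left out, and 384 to 863 on leaving out 1 array. HFD against ND gave 152 passing probe sets, 938 with the replicate block over all 11 arrays, 0 to 1356 on leaving out 1 array, and 0 with no filter, quantile normalization, cyclic loess, an intensity trend with robust variance, array weights, or without ND replicates 1 and 3. The difference of the diet effects gave 0, or 0 to 1 on leaving out 1 array, and its unadjusted count (1740) was 1122 to 2551. With the replicate block, HFD+EV against ND+EV still had 0 passing probe sets. Over all 11 arrays the block moved its unadjusted higher count from 855 to 1075 and the lower one from 667 to 750. Over only the 6 arrays compared it moved them from 1136 to 1256 and from 864 to 902. Same-numbered arrays correlated by 0.0742, 0.13 and -0.00885 after removal of group means. HFD+EV replicates 1 and 3 each correlated best with an ND+EV array of another number. Deviations within a group of 3 are tied to each other, so these correlations cannot decide whether the numbers pair the arrays. Direction turned for VEGFA (-0.023, 0.064 as the mean of its probe sets, and -0.10 to 0.12 on leaving out 1 array, with 0.021 without HFD+EV replicate 2), for B2M (-0.035, and -0.10 to 0.016 on leaving out 1 array, with 0.015 without ND+EV replicate 2) and for IRF7 (0.0022, and -0.028 to 0.03 on leaving out 1 array, with -0.012 without ND+EV replicate 1 or 3). The effector median was 0.48 to 0.61. The median over all probe sets was -0.0066, -0.0016 with quantile and -0.0039 with loess scaling. The cause of these changes was not tested.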
